A study of Mus musculus with 4 samples.

Results

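A segment of mouse chromosome 2, between 48.8 and 59.9 Mb in GRCm38, held genes whose reads from the paternal allele were missing in Zfp57-/- cells and present in wild-type cells. Its members were all genes that lie wholly in this interval and had more than 8 counts summed over the 4 libraries. This gave 38 genes of the 19995 that passed the same filter in the genome. The interval was chosen by its allelic reads, which came from both alleles in wild-type and from the maternal allele alone in Zfp57-/- cells, so every genotype difference of a member given here describes the choice and is no test of it. The annotation places 117 genes in the interval, of which 39 are protein-coding. The members were 31 protein-coding genes, 5 pseudogenes and 2 processed transcripts. The remaining 79 genes had 8 counts or fewer, and 53 of these had 0 counts in all libraries. The 79 genes included 8 protein-coding genes, namely Tas2r134, Galnt5, Ermn, Cytip, Acvr1c, Gm17409, Gm11099 and Dapl1. Acvr1c, a type I receptor for activin and Nodal ligands, had 8 counts in all and stood just outside the filter, whereas Nmi and Gm13493, with 10 counts each, stood just inside.

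The cells were labelled neural precursor cells (NPCs) and were obtained at day 12 of an in vitro corticogenesis protocol. They came from JB1 embryonic stem cells (ESCs), an F1 hybrid line with a JF1 mother and a C57BL/6 (B6) father. The study found that Zfp57-/- cells differentiated only partially and called them neural precursor-like cells. There were 2 wild-type and 2 Zfp57-/- libraries of total RNA, labelled as biological duplicates. All 4 came from cells kept as ESCs with 3 µM of the Gsk3 inhibitor CHIR99021 and treated during differentiation with 1 µM of the hedgehog inhibitor cyclopamine from day 2 to day 10. The Zfp57-/- libraries came from a single line derived from JB1, so the genotype and the line cannot be told apart, and the spread between replicates is that between cultures of the same line.

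ZFP57 is a KRAB zinc finger protein that keeps DNA methylation on imprinted control regions. In an F1 hybrid, a read that covers a base at which the parental strains differ can be assigned to a parent, and most autosomal genes give reads of both parents in similar number. Where the copy of a single parent gives all the RNA, the level of a gene depends on that copy, and dosage compensation is the name for a higher output of the remaining copy that offsets the missing output of the other.

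Libraries held 7663520 to 10337082 counts, and the separate allelic alignment gave 2837013 to 3826604 counts per library. Zfp57 (chr17:37001163-37010635) had 392 and 249 counts in wild-type cells versus 158 and 144 in Zfp57-/- cells. Its JF1 reads were 136 and 99 in wild-type and 0 in both Zfp57-/- libraries, and its B6 reads were 81 and 49 in wild-type cells versus 82 and 76 in Zfp57-/- cells. All 10 pluripotency markers were called higher in Zfp57-/- cells by edgeR's quasi-likelihood test, with a summed level of 4.83 and 9.07 CPM (counts per 1000000 bulk counts, with the libraries scaled by TMM) in wild-type cells versus 1661 and 1455 in Zfp57-/- cells. Nanog had 0 counts in both wild-type libraries. The study reported lower Nanog and Pou5f1 after differentiation than in the starting ESCs, in cells of both genotypes. The values here compare the genotypes at day 12 only, and the starting ESCs were not examined. Of 10 neural markers, 8 were called lower and none higher. Their summed level was 1783 and 2180 CPM in wild-type cells versus 404.2 and 360.5 in Zfp57-/- cells. Of 8 endoderm and mesoderm markers, T was called higher, Kdr lower and 6 were not called. In bulk samples, fewer cells of a type and less RNA per cell cannot be told apart.

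Over all 38 members, B6 reads made up 51.4% and 51.8% of the allelic reads in the wild-type libraries, and 0.254% and 0.138% in the Zfp57-/- libraries. The Wilson 95% intervals were 50.3% to 52.5% and 50.8% to 52.9% in wild-type, and 0.134% to 0.483% and 0.0592% to 0.324% in Zfp57-/- cells, and they cover counting error only. Almost all of the remaining B6 reads belonged to Wdsub1, which lies inside the interval at its right end and goes against the description of the segment. It had 11 and 9 B6 reads in wild-type cells versus 9 and 4 in Zfp57-/- cells. Without Wdsub1, the Zfp57-/- libraries held 0 B6 reads of 3518 allelic reads, which allows a share of up to 0.0853%, and 1 of 3583, or 0.0279%. The single read belonged to Rif1, which had 784 JF1 reads in the same library.

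The study states that JB1 ESCs are male, so the X chromosome gave a measure of how often a read is assigned to B6 where nearly all reads are JF1. B6 reads made up 0.172% and 0.212% of its allelic reads in wild-type cells versus 0.281% and 0.305% in Zfp57-/- cells. Without Nono and Mid1, left out after the values were seen, the shares were 0.0635% and 0.0743% in wild-type cells versus 0.122% and 0.120% in Zfp57-/- cells. The B6 share of the chromosome 2 members other than Wdsub1 was below these values in both Zfp57-/- libraries. On the rest of chromosome 2, B6 reads made up between 49.7% and 50.8% of the allelic reads in all 4 libraries.

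**Figure D1:**
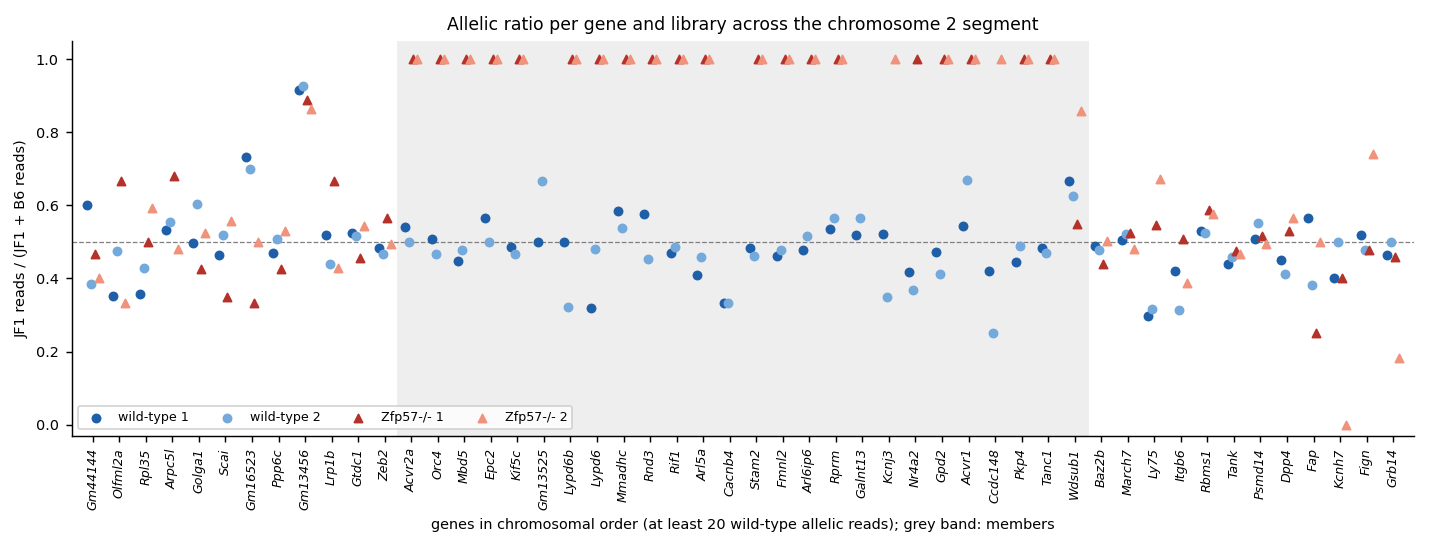
Allelic ratio, JF1 reads over JF1 plus B6 reads, of genes with at least 20 wild-type allelic reads in chromosomal order, with 1 point per library (circles wild-type, triangles Zfp57-/-) and the members in the grey band. Within the band the Zfp57-/- points lie at or next to 1 for all members but Wdsub1, points are missing where a library had no allelic read, and points of both genotypes scatter around 0.5 for most genes outside it.

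Loss of B6 reads held for nearly every member that could be read. There were 32 members with B6 reads in wild-type cells. In Zfp57-/- cells, 30 of them had 0 B6 reads, Rif1 had 1 and Wdsub1 had 13. Of these 30 members, 25 had JF1 reads in Zfp57-/- cells, and 5 had no allelic read there and gave no ratio (Gm13525, Nmi, A430018G15Rik, Cacnb4 and Galnt13). The remaining 6 members had no wild-type allelic read, and 5 of these had no allelic read in any library (Gm13509, Gm13493, Rbm43, Tnfaip6 and Gm13534). A stricter count took genes with at least 20 B6 reads in wild-type and at least 20 JF1 reads in Zfp57-/- cells. Among members, 20 of 21 such genes had 0 or 1 B6 reads in the Zfp57-/- libraries together. Elsewhere on chromosome 2 this was true of 0 of 713 genes, and on the autosomes outside the segment of 4 of 8824. These 4 genes, named after their values were seen, were Hmga1b, Gm20075, Rpsa-ps10 and Gm15459, each on a different chromosome. In the fit of B6 reads, 25 of 26 members tested were called lower and Wdsub1 was not called, where the background was 12.9% of 13430 genes called lower and 15.9% called higher. The 25 include Galnt13 and Cacnb4, which had no JF1 reads in Zfp57-/- cells either, so their lower B6 reads show no allelic loss. The interval was chosen by this loss, so the stricter count and the fit describe the choice and are no test of it.

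The right end of the loss lay between neighbouring genes. Tanc1 (chr2:59612042-59846149), a scaffold protein of synapses, had 188 and 322 B6 reads in wild-type and 0 in both Zfp57-/- libraries, against 543 and 617 JF1 reads. Wdsub1 (chr2:59852364-59882591, minus strand) begins 6.215 kb beyond the end of Tanc1. Its JF1 reads were 22 and 15 in wild-type cells versus 11 and 24 in Zfp57-/- cells, and the B6 share was 35.1% (Wilson 95% interval 24.0% to 48.1%) in wild-type cells versus 27.1% (16.6% to 41.0%) in Zfp57-/- cells when libraries were pooled. These intervals overlap but cover counting error only, and the shares rest on 57 and 48 reads. By library, the B6 share was 33.3% and 37.5% in wild-type cells versus 45.0% and 14.3% in Zfp57-/- cells, so the Zfp57-/- libraries stood far apart. Baz2b (chr2:59899363-60209839), a bromodomain protein and the next gene, begins inside the interval and ends outside it, so that it is not a member. Its allelic ratio was 0.484 ± 0.00758 (SD, n = 2) in wild-type cells versus 0.471 ± 0.0451 in Zfp57-/- cells. March7, a ubiquitin ligase, followed with 0.513 ± 0.0132 and 0.501 ± 0.0304. Over the 5 Mb to the right of the segment, the B6 share was between 47.7% and 51.2% in all 4 libraries.

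The left end was less closely bounded. Acvr2a (chr2:48814109-48903269) was the first member, with 91 and 102 B6 reads in wild-type and 0 in both Zfp57-/- libraries. The nearest gene to its left with at least 20 wild-type allelic reads was Zeb2 (chr2:44983632-45117395), 3697 kb away. Zeb2 encodes a zinc finger transcriptional repressor that acts in neural development. The allelic ratio of Zeb2 was 0.475 ± 0.0113 (SD, n = 2) in wild-type cells versus 0.529 ± 0.0506 in Zfp57-/- cells. Further left, Gtdc1 had ratios of 0.521 ± 0.00627 and 0.499 ± 0.0632. The members without B6 reads thus extended from Acvr2a to Tanc1 over 11032 kb, and the data hold no gene that places the left end within the interval between Zeb2 and Acvr2a. DNA of these cells was not analysed here.

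In bulk counts, where reads of both alleles and reads without an informative base are counted together, most members were lower in Zfp57-/- cells. Of the 38 members, 23 were called lower and Rbm43 was called higher, against a background of 14.6% called lower and 13% called higher among 19995 genes. The median log2 fold change of the members was -1.31, where the median over all genes tested was -0.01 and over the rest of chromosome 2 it was -0.05. Over the 5 Mb to the left, the median of 3 genes was -1.497, with 2 called lower and 0 higher. Over the 5 Mb to the right, the median of 23 genes was 0.135, with 5 called lower and 4 higher. Zeb2 (-1.497) and Baz2b (-1.115), which gave reads of both alleles, were called lower in bulk, and March7 (0.235) was not called. Bulk decreases near the member median thus also occurred beside the segment. Of JF1 reads, 28 members could be tested, and 7 were called lower and 2 higher, against 15.3% and 11.3% of 13301 genes. The median JF1 log2 fold change was -0.34, beside -0.08 over all genes tested and -0.09 over the rest of chromosome 2. These values come from the contrast that chose the segment, and nothing is read from them about the segment as a list.

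**Figure D2:**
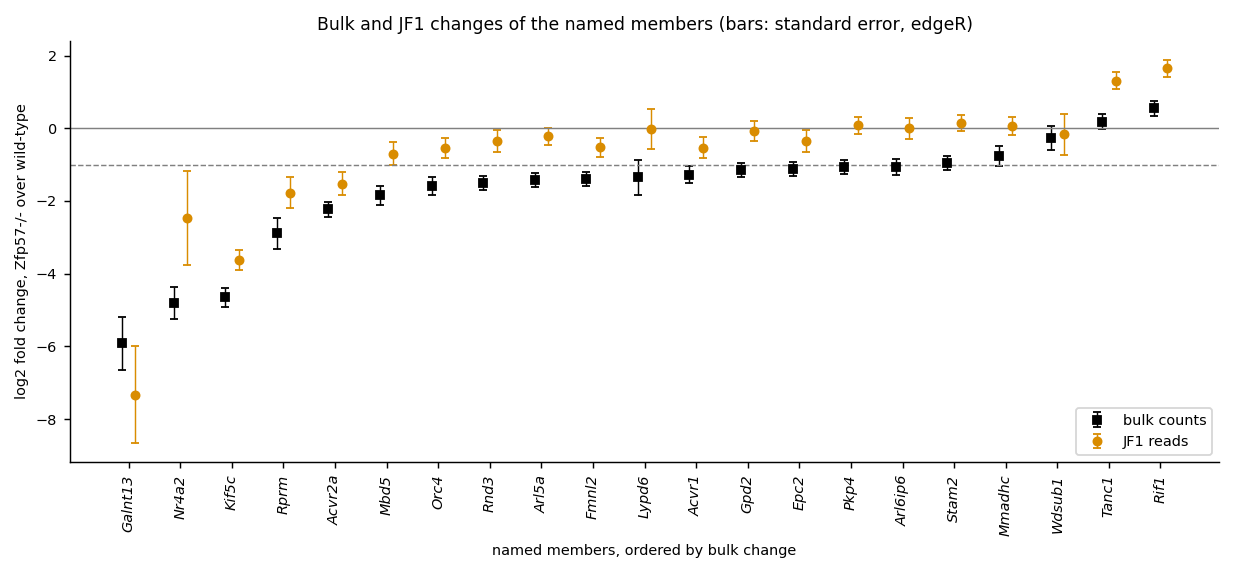
Log2 fold change, Zfp57-/- over wild-type, of bulk counts (squares) and JF1 reads (circles). Shown are 21 of the 22 members with enough reads, ordered by bulk change. Bars give the standard error (SE) reckoned from the edgeR test, and the dashed line at -1 marks a level of 50% of wild-type. The circles of most genes lie about 1 unit above their squares, and those of Rif1 and Tanc1 lie above 0. Those of Galnt13, Kif5c, Nr4a2, Rprm and Acvr2a lie well below 0. The circle of Galnt13 lies below its square and rests on 0 JF1 reads in both Zfp57-/- libraries, so its size is not measured.

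The members with at least 100 bulk counts, at least 20 wild-type allelic reads and a protein product numbered 22, Wdsub1 among them. For the other 21, the bulk and JF1 values differed by nearly the same amount in most genes. Among the 20 members outside Wdsub1 with at least 40 JF1 reads, bulk minus JF1 log2 change had a median of -1.07, with a lower quartile of -1.13 and an upper quartile of -0.85. Over 791 genes of the rest of chromosome 2 the median was 0.01. Where both alleles give equal reads and B6 goes to 0, this difference is -1 by arithmetic. Over the 21 genes the bulk and JF1 changes correlated at Pearson's r = 0.947, as a description, since both come from the same libraries and JF1 reads are a part of the bulk counts.

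JF1 reads show the output of the copy that kept its reads. The JF1 log2 change lay within 0.5 of 0 in 10 of the 21 genes. It was 0.5 or more in 2 genes, Rif1 and Tanc1, and -0.5 or less in 9. Among all genes tested on JF1, 41.3% lay within 0.5 of 0, 26.1% at 0.5 or more and 32.7% at -0.5 or less. Bulk counts were called lower with no call on JF1 reads in 13 genes, and both were called lower in 4, namely Acvr2a, Kif5c, Rprm and Galnt13, where 14.6% of all genes tested were called lower in bulk and 15.3% on JF1. In bulk CPM, both Zfp57-/- libraries were below both wild-type libraries in 19 of 21 genes and above them in Rif1, where 32.6% of all genes tested were below and 33.7% above. In JF1 level the Zfp57-/- libraries were below in 10 genes, above in 4 (Rif1, Tanc1, Stam2 and Pkp4) and overlapped the wild-type libraries in 7, where 34.0% of genes tested were below and 29.9% above.

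**Figure D3:**
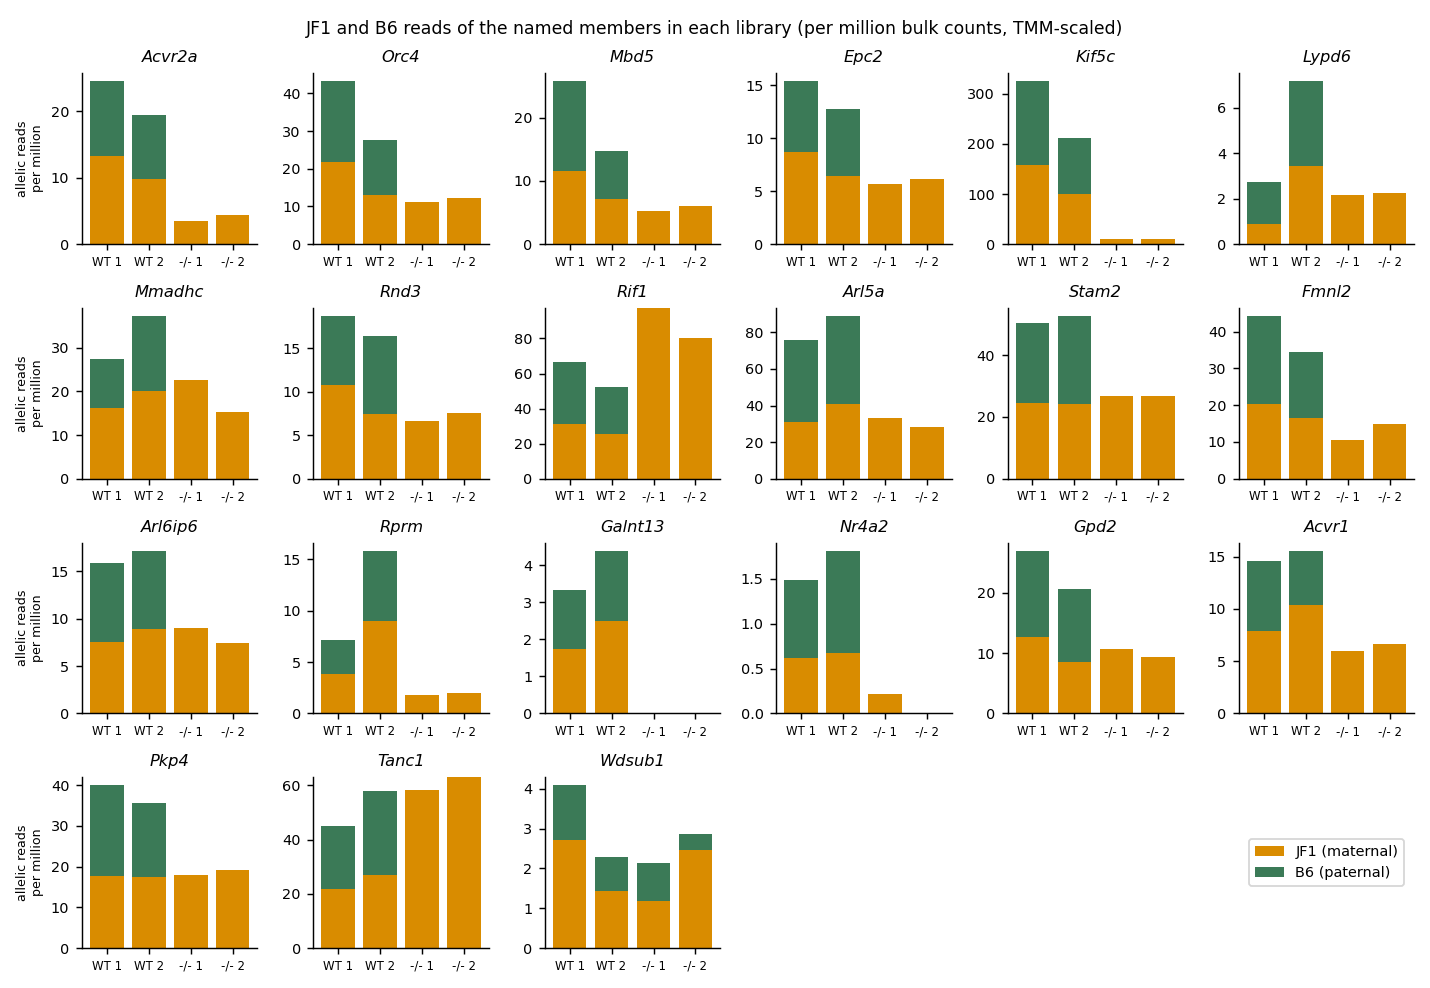
JF1 (orange) and B6 (green) CPM, stacked, in each of the 4 libraries for 21 of the 22 members with enough reads, each panel with its own vertical axis from 0. Green is missing from all Zfp57-/- bars except those of Wdsub1 (the single B6 read of Rif1 is too small to see), and the orange part keeps its wild-type height in genes such as Stam2 and Pkp4, exceeds the whole wild-type bar in Rif1 and is much shorter in Kif5c.

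The receptors of the segment bind activins and bone morphogenetic proteins (BMPs). Acvr2a, a type II receptor for activin and BMP ligands, had 1024 and 1094 bulk counts in wild-type cells versus 214 and 259 in Zfp57-/- cells. Its JF1 reads were 107 and 102 in wild-type cells versus 33 and 43 in Zfp57-/- cells, so that the Zfp57-/- libraries were below the wild-type libraries on this allele too. The log2 fold change was -2.22 (SE 0.21) in bulk and -1.52 (SE 0.31) on JF1. Acvr1 (chr2:58388644-58567157, minus strand), a type I receptor for BMPs and the gene altered in fibrodysplasia ossificans progressiva, had 208 and 313 bulk counts in wild-type cells versus 100 and 120 in Zfp57-/- cells. JF1 reads of Acvr1 were 64 and 109 in wild-type cells versus 56 and 65 in Zfp57-/- cells, and B6 reads 54 and 54 in wild-type and 0 in both Zfp57-/- libraries. Its log2 fold change was -1.27 (SE 0.24) in bulk and -0.54 (SE 0.29) on JF1. The level of Acvr1 in Zfp57-/- cells was thus 0.413 of wild-type in bulk and 0.688 on the JF1 allele, where the change was not called.

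Other genes of the activin, Nodal and BMP pathways lie elsewhere in the genome and were read for comparison, from a list of 25 genes. In bulk counts, 7 were called higher, 8 lower and 10 were not called, with a median log2 fold change of -0.29, where 13% of all genes tested were called higher and 14.6% lower. Acvr2b, the other type II activin receptor, had 790 and 793 counts in wild-type cells versus 308 and 416 in Zfp57-/- cells, which gave a log2 fold change of -1.20 (SE 0.22, adjusted p = 0.00326, edgeR's quasi-likelihood test with Benjamini-Hochberg adjustment). Its JF1 change was -1.07, so its bulk and JF1 values were close to each other, unlike those of Acvr2a. Bmpr1b, a type I BMP receptor, was at -3.68 (SE 0.34, adjusted p = 5.05e-05 by the same edgeR test). The type I receptor Acvr1b was at -0.32 (SE 0.20) and was not called. The ligand gene Nodal had 3 and 6 counts in wild-type cells versus 308 and 341 in Zfp57-/- cells, and the Nodal antagonists Lefty1 and Lefty2 were also called higher. Nodal and the Lefty genes are active in pluripotent cells, whose markers were higher in the same libraries. The part of those markers in the receptor values was not tested.

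Of the 4 members with roles in chromatin or DNA replication, 3 were called lower in bulk counts and Rif1 was not, where 14.6% of all genes tested were called lower. Orc4 (chr2:48902824-48950277, minus strand), a subunit of the origin recognition complex, had 177 and 136 JF1 reads in wild-type cells versus 105 and 121 in Zfp57-/- cells. In CPM of JF1 reads, these were 21.9 and 12.98 in wild-type cells versus 11.3 and 12.4 in Zfp57-/- cells, so that the lower wild-type library was close to the Zfp57-/- libraries. Its log2 fold change was -1.58 (SE 0.25) in bulk and -0.55 (SE 0.28) on JF1. Mbd5 (chr2:48949508-49325405), a methyl-CpG-binding domain protein whose deletion causes intellectual disability, had 628 and 506 bulk counts in wild-type cells versus 152 and 183 in Zfp57-/- cells, and its log2 fold change was -1.84 (SE 0.26) in bulk and -0.71 (SE 0.32) on JF1. Epc2 (chr2:49451486-49551948), a homolog of a NuA4 acetyltransferase complex subunit, had 70 and 67 JF1 reads in wild-type cells versus 53 and 60 in Zfp57-/- cells, and was at -1.12 (SE 0.20) in bulk and -0.34 (SE 0.30) on JF1. None of these 3 genes was called on JF1, where 15.3% of all genes tested were called lower and 11.3% higher. The ends of Acvr2a, Orc4 and Mbd5 overlap on opposite strands, and counts were made by strand.

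Rif1 (chr2:52072832-52122383), which controls the timing of DNA replication and repair and is highly expressed in ESCs, differed from them. It had 2812 and 2799 bulk counts in wild-type cells versus 4565 and 3998 in Zfp57-/- cells. Its JF1 reads were 252 and 267 in wild-type cells versus 908 and 784 in Zfp57-/- cells, and its B6 reads were 284 and 283 in wild-type cells versus 0 and 1 in Zfp57-/- cells. In CPM, the JF1 allele was at 28.3 ± 4.04 (SD, n = 2) in wild-type cells versus 88.8 ± 12.3 in Zfp57-/- cells, above the 59.4 ± 9.81 that both alleles gave together in wild-type cells. The log2 fold change was 0.55 (SE 0.21) in bulk, which was not called, and 1.65 (SE 0.23) on JF1, which was called. With a single B6 read left, the Zfp57-/- libraries held 1.46 times the wild-type bulk level of Rif1. The pluripotency markers, which were higher in the same libraries, stood at 1661 and 1455 summed CPM, and their part in the Rif1 value was not tested.

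Tanc1, next to the right end, was the other member called higher on JF1. It had 631 and 1099 bulk counts in wild-type cells versus 930 and 1059 in Zfp57-/- cells. JF1 reads of Tanc1 were 175 and 284 in wild-type cells versus 543 and 617 in Zfp57-/- cells. In CPM these were 24.4 ± 3.85 (SD, n = 2) in wild-type cells versus 60.7 ± 3.38 in Zfp57-/- cells, beside 51.4 ± 9.12 for both alleles together in wild-type cells. Its log2 fold change was 0.18 (SE 0.21) in bulk, where the libraries of the genotypes overlapped, and 1.31 (SE 0.23) on JF1. Bulk counts gave no call for Tanc1, although its B6 reads were 510 of 969 allelic reads in wild-type cells versus 0 of 1160 in Zfp57-/- cells.

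The group of neuronal and cytoskeletal genes had 13 members, Rprm and the muscle gene Neb included, and held the lowest values among members with enough reads. In bulk counts 9 of them were called lower and 4 were not called, with a median log2 fold change of -1.51, where 14.6% of all genes tested were called lower. On JF1, 12 could be tested, of which 5 were called lower (Kif5c, Rprm, Galnt13, Cacnb4 and Kcnj3), Tanc1 higher and 6 not, with a median of -1.15, where 15.3% of all genes tested were called lower and 11.3% higher. In the Zfp57-/- libraries together, Galnt13 and Cacnb4 had 0 JF1 reads, Kcnj3 had 1 and Nr4a2 had 2. The size of their JF1 changes is thus not measured, and the median rests in part on them. Kif5c (chr2:49619298-49774778), a neuronal kinesin heavy chain that moves cargo along axons, had 4335 and 3919 bulk counts in wild-type cells versus 169 and 177 in Zfp57-/- cells. Its JF1 reads were 1278 and 1039 in wild-type cells versus 96 and 103 in Zfp57-/- cells, and its B6 reads were 1345 and 1183 in wild-type and 0 in both Zfp57-/- libraries. The log2 fold change was -4.65 (SE 0.25) in bulk and -3.62 (SE 0.28) on JF1, so that most of the bulk difference was also present on the allele that kept its reads. Rprm (chr2:54084093-54085552, minus strand), known as Reprimo, a mediator of cell cycle arrest, had 31 and 94 JF1 reads in wild-type cells versus 17 and 19 in Zfp57-/- cells, and was at -2.89 (SE 0.43) in bulk and -1.78 (SE 0.43) on JF1, a JF1 call that was lost without wild-type replicate 2 (-1.02). Its wild-type libraries differed by more than the depth difference, at 10.65 and 21.96 CPM in bulk.

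Galnt13 (chr2:54436317-55118309), a glycosyltransferase of neural cells, had 72 and 121 bulk counts in wild-type cells versus 0 and 3 in Zfp57-/- cells. It had 14 and 26 JF1 reads and 13 and 20 B6 reads in wild-type cells versus none of either in Zfp57-/- cells, so its allelic ratio could not be read there. The JF1 level was at least 6.71-fold lower in Zfp57-/- cells, reckoned against 3 reads per library. Nr4a2 (chr2:57106830-57124003, minus strand), the nuclear receptor NURR1 of dopaminergic neurons, had 119 and 190 bulk counts in wild-type cells versus 4 and 7 in Zfp57-/- cells, which gave a log2 fold change of -4.81 (SE 0.43). JF1 reads of Nr4a2 were few, 5 and 7 in wild-type cells versus 2 and 0 in Zfp57-/- cells, and its JF1 log2 change of -2.47 (SE 1.29) was not called.

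Some neuronal members had fewer than 100 bulk counts. Kcnj3, a G protein-gated potassium channel subunit, had 32 and 37 counts in wild-type and 0 in both Zfp57-/- libraries, at least 11.9-fold lower, reckoned against 3 counts per library. Cacnb4, an auxiliary subunit of voltage-gated calcium channels, had 53 and 37 counts in wild-type cells versus 1 and 3 in Zfp57-/- cells. It had 36 allelic reads in wild-type cells and 0 in Zfp57-/- cells. Lypd6b, a neighbour and paralog of Lypd6 that modulates nicotinic receptors, had 5 and 41 counts in wild-type cells versus 21 and 26 in Zfp57-/- cells, with 1 and 19 B6 reads in wild-type and 0 in both Zfp57-/- libraries. JF1 reads of Lypd6b were 1 and 9 in wild-type cells versus 11 and 17 in Zfp57-/- cells, above wild-type in both libraries also in CPM, and its JF1 change of 1.47 (SE 0.81) was not called. These were chosen after their values were seen. The neural marker list had 8 of 10 genes lower, with summed levels of 404.2 and 360.5 CPM in Zfp57-/- cells beside 1783 and 2180 in wild-type. Most members of the neuronal and cytoskeletal group were also called lower in bulk counts, and the part of the markers in their values was not tested.

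Not all genes with a role in neurons or the cytoskeleton were called lower on JF1. Pkp4 (chr2:59160850-59355208), a plakophilin of cell junctions, had 144 and 183 JF1 reads in wild-type cells versus 168 and 188 in Zfp57-/- cells, and was at -1.07 (SE 0.19) in bulk and 0.08 (SE 0.23) on JF1. Its bulk level was 0.475 of wild-type and its JF1 level 1.06 of wild-type. Rnd3 (chr2:51130438-51149111, minus strand), an atypical small GTPase that acts in neuronal migration, was at -1.51 (SE 0.20) in bulk and -0.35 (SE 0.30) on JF1. JF1 reads of Rnd3 were 87 and 78 in wild-type cells versus 62 and 74 in Zfp57-/- cells, and overlapped when scaled for depth. Fmnl2 (chr2:52857860-53133804), a formin that lengthens actin filaments, was at -1.39 (SE 0.19) in bulk and -0.53 (SE 0.26) on JF1, with 165 and 173 JF1 reads in wild-type cells versus 99 and 146 in Zfp57-/- cells. In JF1 CPM, both Zfp57-/- libraries of Fmnl2 were below both wild-type libraries, at 20.4 and 16.5 in wild-type cells versus 10.6 and 14.9 in Zfp57-/- cells, and the change was not called. Lypd6 (chr2:50066429-50193569), a membrane-anchored regulator of Wnt signalling and nicotinic receptors, had 7 and 36 JF1 reads in wild-type cells versus 20 and 22 in Zfp57-/- cells. The wild-type libraries of Lypd6 stood far apart, and its bulk change of -1.35 (SE 0.48) was not called.

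Of the 10 members with roles in vesicle transport, RNA processing and metabolism, 8 could be tested on JF1 and none was called in either direction, where 15.3% of all genes tested were called lower and 11.3% higher. The 8 had a median JF1 log2 change of -0.07 beside -0.08 over all genes tested. The lowest of them was Ccdc148, a coiled-coil protein gene, at -3.15 (SE 1.54) on 8 and 2 JF1 reads in wild-type cells versus 0 and 1 in Zfp57-/- cells. Stam2 (chr2:52691664-52742281, minus strand), an adaptor of endosomal sorting, had 197 and 254 JF1 reads and 210 and 297 B6 reads in wild-type. In Zfp57-/- cells it had 250 and 263 JF1 reads and 0 B6 reads in both libraries. Its log2 fold change was -0.95 (SE 0.19) in bulk and 0.14 (SE 0.22) on JF1, and its bulk level was 0.518 of wild-type.

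Arl6ip6 (chr2:53191726-53219220) was at -1.07 (SE 0.23) in bulk, and its JF1 reads were 61 and 93 in wild-type cells versus 84 and 73 in Zfp57-/- cells, a JF1 level 0.999 of wild-type. Gpd2 (chr2:57237635-57370719), the mitochondrial glycerol-3-phosphate dehydrogenase, was at -1.15 (SE 0.20) in bulk and -0.08 (SE 0.28) on JF1. Its JF1 reads were 103 and 89 in wild-type cells versus 100 and 91 in Zfp57-/- cells. Mmadhc (chr2:50279881-50296801, minus strand), which directs vitamin B12 to its enzymes, had 130 and 210 JF1 reads in wild-type cells versus 210 and 149 in Zfp57-/- cells. The bulk change of Mmadhc was -0.76 (SE 0.26) and was not called, and its JF1 change was 0.06 (SE 0.26). Arl5a (chr2:52397951-52424901, minus strand), a GTPase of the Golgi, was at -1.43 (SE 0.19) in bulk and -0.22 (SE 0.23) on JF1, with 251 and 427 JF1 reads in wild-type cells versus 311 and 277 in Zfp57-/- cells. In CPM of JF1 reads, Arl5a was at 31.1 and 40.8 in wild-type cells versus 33.4 and 28.3 in Zfp57-/- cells, so that the libraries overlapped. Wdsub1, which kept its B6 reads, was at -0.27 (SE 0.32) in bulk and -0.17 (SE 0.56) on JF1.

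Rbm43, an RNA-binding protein gene (chr2:51924448-51935163, minus strand), was the only member called higher in bulk counts. It had 0 counts in both wild-type libraries and 26 and 31 in Zfp57-/- cells, at least 9.06-fold higher, reckoned against 3 counts per library. No allelic read was assigned to Rbm43 in any library, so the copy that gave these counts is not known. Tnfaip6, a hyaluronan-binding protein of inflammation, had 4 and 6 counts in wild-type cells versus 24 and 14 in Zfp57-/- cells, and Neb, the giant protein of muscle thin filaments, had 29 and 31 in wild-type cells versus 60 and 74 in Zfp57-/- cells. Neither was called. Rbm43, Tnfaip6, Neb and the interferon-related Nmi lie beside Rif1, and the 4 were named after their values were seen. The pseudogenes and processed transcripts had between 10 and 195 bulk counts in all, and those inside longer genes are uncertain, since the reads can come from the longer gene. Gm13525, inside Kif5c, had 20 wild-type allelic reads against 17 bulk counts, and alleles were counted from a separate alignment.

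**Figure D4:**
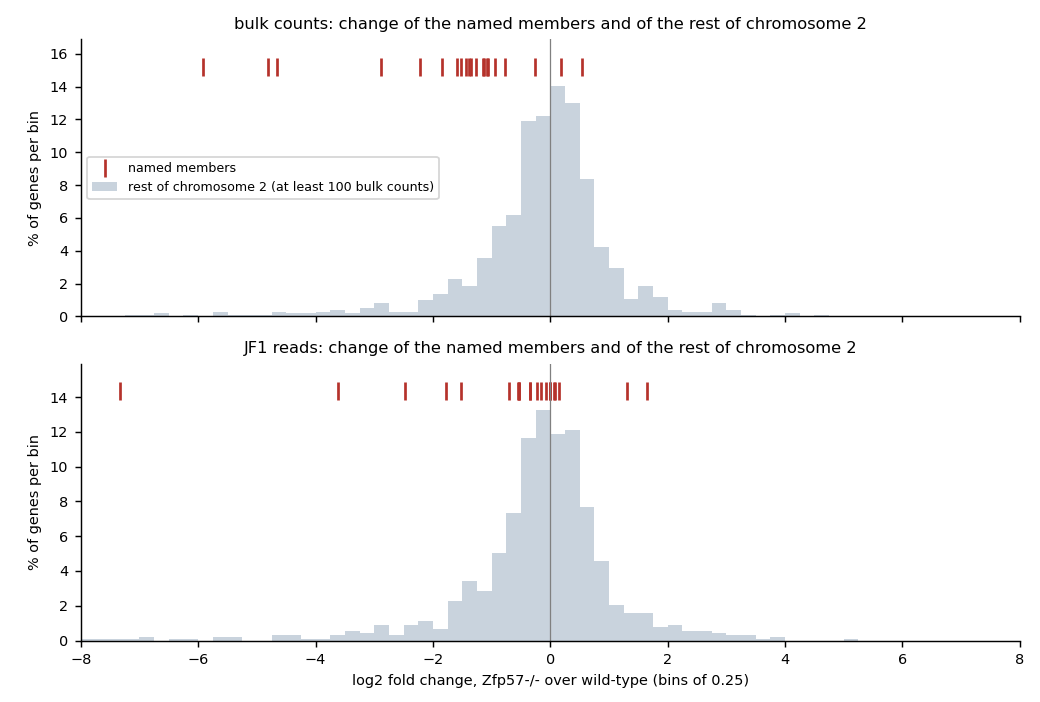
Distribution of the log2 fold change, Zfp57-/- over wild-type, in bulk counts (top) and JF1 reads (bottom) over genes of the rest of chromosome 2 with at least 100 bulk counts (bars, percent of genes per bin), with a tick for each of 21 of the 22 members above; values beyond 8 in either direction are not drawn. The bulk ticks gather near -1 while the JF1 ticks gather near 0, with separate ticks at the low end for Galnt13, Nr4a2 and Kif5c and at the high end for Rif1 and Tanc1.

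In wild-type cells the alleles of the members were near balance, in a contrast between JF1 and B6 reads of the same libraries that does not involve the Zfp57-/- cells, although wild-type ratios took part in the choice of the interval. Of 27 members tested by edgeR's quasi-likelihood test with Benjamini-Hochberg adjustment, Acvr1 was called higher on JF1 and Arl5a lower, against a background of 15.4% called higher and 11% lower among 11722 genes. The median JF1 over B6 log2 difference was -0.13, beside -0.01 over all genes tested. Acvr1 had an allelic ratio of 0.606 ± 0.0893 (SD, n = 2) and a log2 difference of 0.67 (SE 0.20, edgeR adjusted p = 0.00611). The ratios of Acvr1 in the wild-type libraries were 0.542 and 0.669, so that JF1 exceeded B6 in both. Arl5a had a ratio of 0.434 ± 0.0353 and a log2 difference of -0.37 (SE 0.09, edgeR adjusted p = 0.000419), with B6 above JF1 in both libraries. DESeq2 called neither gene, with adjusted p of 0.417 for Acvr1 and 0.161 for Arl5a, where the other settings of edgeR gave 0.00456 to 0.00923 for Acvr1 and 0.000379 to 0.000955 for Arl5a. The remaining 25 members were not called, and Kif5c, with the most allelic reads, was at -0.13 (SE 0.06).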

How the data were processed

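RNA-seq of 2 wild-type and 2 Zfp57-/- cultures, labelled NPCs, was read from the tables of raw counts that the authors deposited. Per the file headers and the study's methods, the authors trimmed reads of 125 bp with Trimmomatic 0.36, aligned them with STAR 2.5.4a, kept unique alignments, and counted fragments by strand per GENCODE vM20 gene (GRCm38) with featureCounts (Subread 1.6.0). Allelic counts came from a separate alignment to a genome masked at strain SNPs, so exons without SNPs give none. Symbols and biotypes were matched by Ensembl identifier to GENCODE vM21.

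Genes with more than 8 bulk counts were compared between genotypes with edgeR 4.0.16 (robust quasi-likelihood test, TMM scaling, R 4.3.3). Each allele was fitted over autosomal genes with at least 10 of its reads, with bulk library sizes. In wild-type cells, JF1 was compared with B6 over genes with at least 20 reads, with a library term. A gene was called at a Benjamini-Hochberg adjusted p under 0.05. The SE of a log2 fold change is its absolute value divided by the square root of the F statistic of the edgeR test. Shares have Wilson 95% intervals, and a level of 0 is bounded by 3 reads. P-values measure the spread between 2 cultures of a line. The fits were run on simulated counts, with the same spread set for all genes and changes placed only in genes with many reads. Changes in genes with few reads were not covered. Alternatives were DESeq2 1.42.0 and its size factors, other filters and scalings, a fit of 8 allele columns, a replicate block, each library left out and, chosen after seeing the data, Wdsub1 left out.

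The interval, its members and all lists were chosen with earlier results of these data known. Named members have a protein product, at least 100 bulk counts and at least 20 wild-type allelic reads, 1 of them is counted but not reported here, and the genes beyond the ends were taken from the 5 nearest with 20 such reads. Python 3.11.15 and matplotlib 3.10.9 were used for tables and figures.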

Additional observations from a re-analysis of the deposited data

How the results depend on the processing

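Of the summary values of the members, 105 stayed within the spread between replicates or within 1.5 times the count under the alternatives and 24 moved, and none changed direction. In bulk counts, the number of members called higher was 3 under the replicate block and 1 to 5 when each library was left out, and the number called lower was 15 to 25 when each library was left out, beside 1 and 23. It was 15 without either Zfp57-/- library, which leaves a single library to stand for the genotype with the spread taken from the other. The bulk median log2 change was -1.212 with a stricter filter and -1.375 to -1.203 with each library left out. The number of members called lower on JF1, 7 in the fit reported, was 4 with DESeq2, 4 with the stricter filter, which tested fewer genes, and 4 to 10 with each library left out. The JF1 median ranged from -0.6184 to -0.2282 with each library left out. The median B6 change was -8.94 with DESeq2, -8.842 without a filter, -9.954 with the stricter filter and -9.453 to -9.201 with each library left out, and its size depends on how a count of 0 is treated. In wild-type cells, DESeq2 called 0 members higher on JF1 and 0 lower where it called 1240 genes in all, and scaling over the allele columns gave 2 higher. The median difference between the alleles was -0.1273 to -0.07369 with each library left out, where no test was possible. The B6 share in Zfp57-/- cells was 0.1964% as the mean of both libraries, 0% as the median over members, and 0.01395% without Wdsub1. The JF1 calls of Rif1 and Tanc1 held under all alternatives run. Of the genes named, without wild-type replicate 2 the JF1 call of Rprm was lost (-1.02, edgeR adjusted p = 0.127) and JF1 of Orc4 (-0.89), Mbd5 (-1.03) and Fmnl2 (-0.67) became called lower. Bulk calls of Epc2, Stam2, Acvr1 and Pkp4 were lost without Zfp57-/- replicate 1 (log2 changes -1.18 to -0.94, edgeR adjusted p 0.0576 to 0.115), and those of Stam2, Arl6ip6 and Gpd2 without Zfp57-/- replicate 2 (-1.09 to -0.86, edgeR adjusted p 0.059 to 0.169). In bulk, Mmadhc (-0.98 and -0.51) became called lower and Rif1 (0.75 and 0.37) higher without either wild-type library. Lypd6 (-1.77) became called lower without wild-type replicate 1 and Tanc1 (0.41) higher without wild-type replicate 2, and Lypd6 and Mmadhc were also called lower without a filter. Depth limits the allelic ratio of members with few reads in Zfp57-/- cells, Galnt13 and Nr4a2 among them.

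The replicates carry numbers in the labels, but nothing says that a number marks a shared batch. Deviations of same-numbered libraries from their group means correlated at 0.157 over 11880 genes, with 2 pairs only. With the replicate number as a block, 3 members were called higher and 25 lower in bulk, Lypd6 (-1.28) and Mmadhc (-0.77) were added to the lower calls and Rif1 (0.55) to the higher ones, and on JF1 the calls stayed at 2 higher and 7 lower.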
